A study of Drosophila melanogaster with 12 samples.

Results

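Long noncoding RNA genes whose 3′ ends were recorded by 3′-end sequencing of adult fly heads are described here. They were selected as genes with a symbol starting with lncRNA: or asRNA: in the Ensembl fly annotation that gave their name to at least 1 cluster of 3′ ends naming no other gene, off the ribosomal DNA scaffold. Of 2450 annotated genes of these classes, 176 met the rule, 6.06% of 1947 lncRNA: genes and 58 of 503 asRNA: genes (11.5%). They held 379 of the 32302 clusters in the series, and 8949 genes in all were named by clusters of their own.

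The 12 libraries came from head powder of adult Drosophila melanogaster raised at 25 °C, males and females together, UV-cross-linked before extraction. In pumFlag flies the endogenous Pumilio (Pum) protein carried a Flag-HA tag at its C-terminus, and w1118 flies (written w118 in the labels) without the tag were the control. Input RNA and RNA recovered with anti-Flag beads (xRIP) were taken from both genotypes, so that each of the 4 groups (Pum IP, Pum input, control IP, control input) has 3 libraries. The series was made to compare Pum binding between 3′ UTR isoforms, but the 12 count columns name no library. Every read number below is therefore the sum over the 12 libraries, inputs and IPs together, with no replicate spread and no comparison between groups. A share of this sum is weighted by the unknown depth of each library.

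Long noncoding RNAs are transcripts without a long open reading frame. Most are made by RNA polymerase II and many are cleaved and polyadenylated like mRNAs, usually after a poly(A) signal hexamer such as AATAAA or ATTAAA. Flies hold well-studied examples, such as the roX RNAs that guide the dosage compensation complex to the male X chromosome. In 3′-seq each read marks 1 transcript end, so read numbers are not divided by transcript length. A tract of A inside a transcript can also be bound by the oligo(dT) primer, and such ends are hard to tell from true ones.

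The sum over all clusters was 152324191 reads, of which 25.3% lay on the ribosomal DNA scaffold. No cluster had fewer than 26 reads. Head markers were read: ninaE, the main rhodopsin, had 465493 reads, nSyb, a neuronal vesicle protein, had 53650 and repo, a glial transcription factor, had 4682. Of the ovary and testis markers sought, Mst84Da had 1052 reads, osk, vas, dj and bam had no cluster of their own, and nos was not found under that symbol. Muscle and fat body markers were also present, from 797 reads for Act88F to 481444 for Yp1.

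The main 3′ end of the genes that the account turns on is shown first, as the 30 bases up to the 3′-most base of the cluster with the most reads. Sequence and coordinates follow the dm6 assembly. Capitals mark an AATAAA or ATTAAA that starts 10 to 35 bases before that base. In the gene accounts below, a hexamer means either of these in this window, and other signal hexamers are not marked.
lncRNA:CR34335 (chrX:3545849-3545878, minus strand): aaacaagcataaaatccaaaaaaaaaaaaa
lncRNA:noe (chr3L:17400328-17400357, minus strand): tcagtaatAATAAAaacaacaacaaaaaca
lncRNA:CR40469 (chrX:122684-122713, plus strand): caaacaaaacaagcaaaaaatccaaaaaaa
lncRNA:mimi (chr3R:23984431-23984460, plus strand): atgaaaaaccaaaaccaaataatgaaaaac
lncRNA:CR42862 (chr3L:230943-230972, plus strand): cAATAAAttgatttttgaaaagaatgctaa
lncRNA:roX1 (chrX:3858941-3858970, minus strand): atacgaatcttcaccaagtgcccaaactat
lncRNA:CR44922 (chr3R:4377600-4377629, plus strand): gcataactagaaacaaatgtgcaattaaat
lncRNA:CR43264 (chrX:5831892-5831921, minus strand): taaataataacacaaaaacacttttttttt
lncRNA:CR45102 (chrX:3702945-3702974, plus strand): gatttctgttagtagtaataatcataaaag
lncRNA:Hsromega (chr3R:21298465-21298494, plus strand): aaagccacagaaaaagtgAATAAAaattca
lncRNA:roX2 (chrX:11580076-11580105, plus strand): aacgttttacgcgccttaaccagtcaaaat
lncRNA:cherub (chr3R:11252545-11252574, minus strand): tcacataaatatctaccaaaattcaaaatc
asRNA:CR44107 (chr3R:19149694-19149723, plus strand): aaATTAAAcgatcaacatgtttaagctgaa
asRNA:CR45800 (chr3R:20326231-20326260, plus strand): tcgttagggaagagcgttaataatcaatgc
asRNA:CR45126 (chr4:459854-459883, plus strand): gaataataatAATAAAaacgtatataaata

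Long noncoding RNA genes took 13935390 reads, 12.2% of the 113852220 reads off the ribosomal DNA scaffold. These were 15.1% of the reads in clusters naming 1 gene there, from 1.31% of those clusters. A single gene made up most of this. lncRNA:CR34335 had 12408148 reads, 89.0% of the reads of all 176 genes and rank 1 among the 8949 genes named by clusters of their own off the ribosomal DNA scaffold, the set in which all ranks below are given. Without it the share of the class in all reads off the ribosomal DNA scaffold was 1.51%, and without the 3 genes with the most reads it was 0.29%. The 58 asRNA: genes had 31244 reads together.

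Most of the genes were read sparsely. The median was 197 reads per gene (quartiles 68.3 and 614), against 1695 reads (quartiles 564 and 4705) for the 8570 protein-coding genes with clusters of their own. At least 1000 reads were recorded for 33 of 176 long noncoding RNA genes (18.8%) and for 5415 of the coding genes (63.2%). The plot of the share of genes past each read number shows the lncRNA: and asRNA: curves close together over the lower range, both left of the coding curve. At the upper end they separated, since 10 lncRNA: genes and 0 asRNA: genes reached 10000 reads.

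**Figure D1:**
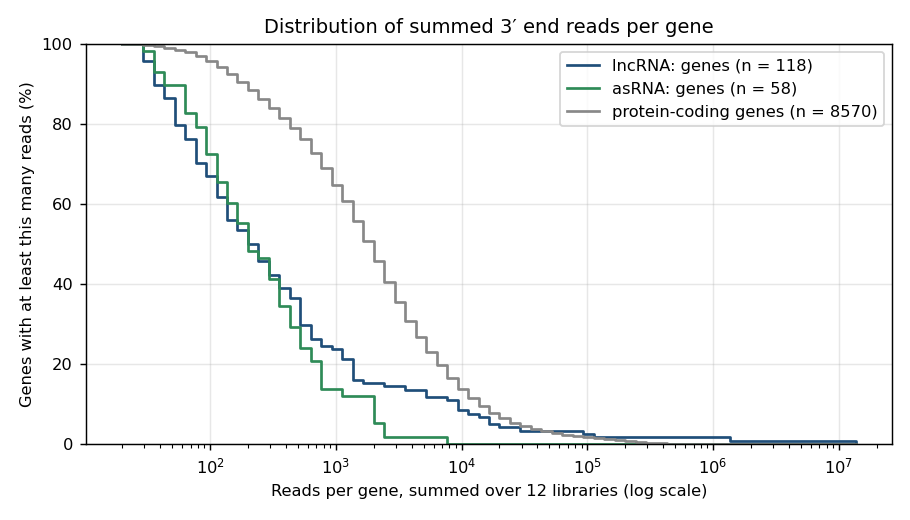
Share of genes (y axis, percent) with at least a given number of reads summed over 12 libraries (x axis, log scale), for lncRNA: genes, 58 asRNA: genes and 8570 protein-coding genes. The medians are 190 reads for lncRNA:, 197 for asRNA: and 1695 for coding genes, and the lncRNA: curve ends at 12408148 reads.

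lncRNA:CR34335 is a gene of 361 bases on the X chromosome (chrX:3545750-3546110, minus strand), with 2 annotated transcripts of 1 exon. One of its 9 clusters, 63 bases wide (chrX:3545849-3545911), held 12399169 reads, 99.9% of the gene and the highest number of any cluster off the ribosomal DNA. Its 3′-most base lay 13 bases past the end of the shorter transcript, and 9 of the next 10 genomic bases were A. Neither AATAAA nor ATTAAA started 10 to 35 bases before that base, and other signal hexamers are not reported for it. Both checks apply to that base only, and where in the 63 bases the reads ended is not recorded. The end of the longer transcript had a cluster of 276 reads.

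lncRNA:CR40469, at rank 3 in the class and rank 141 among all genes with clusters of their own, is a near copy of part of it. Over 214 aligned bases, the whole of lncRNA:CR40469, the genes were 99.1% identical, with 1 mismatch and 1 gap. It had 101549 reads, of which 100905 fell in a cluster (chrX:122684-122713, plus strand) ending 7 bases past the annotated end, before 10 of 10 A. The 2 ends are alike in the sequences above, both running into A. Reads could be divided between these genes by the mapping, and how the authors counted reads with several matches is not given in the sources used here. Of all 379 clusters, 21 in 7 genes had a last stretch of 50 bases that occurs more than once in the genome, 5 of them in these 2 genes and 12 in lncRNA:Hsromega. The 5 were minor clusters of 144 to 4079 reads, and the last 50 bases of the main clusters of both genes occur once.

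**Figure D2:**
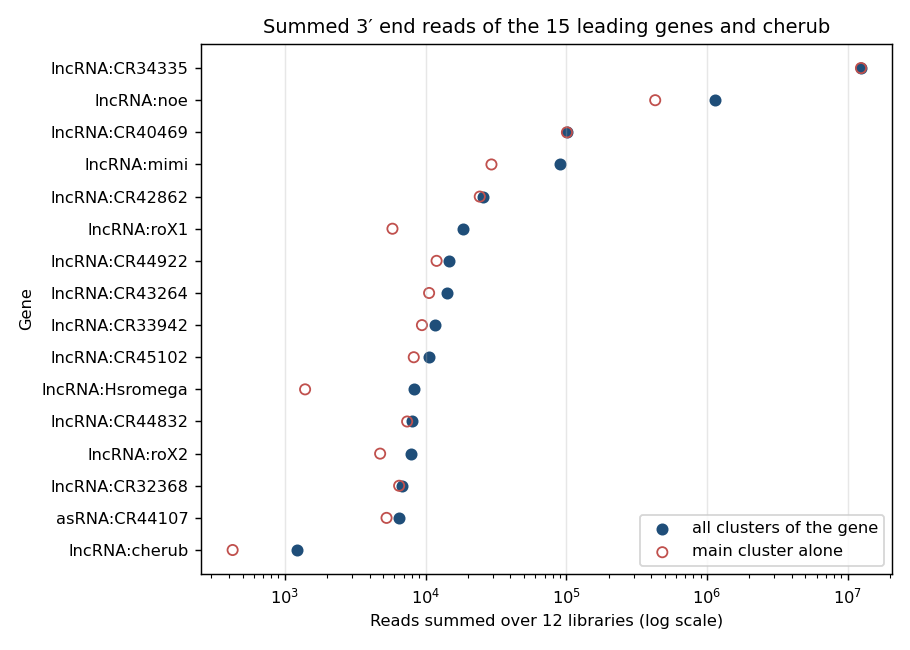
Reads summed over 12 libraries (x axis, log scale) for the 15 long noncoding RNA genes with the most reads and lncRNA:cherub (y axis), for all clusters of the gene (filled) and its main cluster alone (open). lncRNA:CR34335 stands at 12408148 reads, and the filled and open points lie far apart for lncRNA:noe, lncRNA:mimi, lncRNA:roX1, lncRNA:Hsromega and lncRNA:cherub.

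lncRNA:noe (chr3L:17400272-17401348, minus strand) ranked 2 in the class and 4 in that set, with 1135139 reads in 24 clusters over a single exon of 1077 bases. Its main cluster held 427709 reads (37.7%) and ended 56 bases before the annotated end, after an AATAAA. Another cluster, 574 bases before the annotated end, held 395607 reads (34.9%), and the next had 117323 and 85474 reads. The end of rank 2 also carried a hexamer, and the other 2 did not, as these sequences show.
noe cluster of rank 2 (chr3L:17400846-17400875, minus strand): aaaatcgtacaaaaaaatATTAAAacctca
noe cluster of rank 3 (chr3L:17400968-17400997, minus strand): tgcaaacaaaaaaatctaaaaaatacacat
noe cluster of rank 4 (chr3L:17400455-17400484, minus strand): ataaaccaaaaacaattgtaacgagaaaac
When clusters up to 50 bases apart were joined, 3 ends held at least 10% of the reads, with 611847, 395607 and 124809 reads. None of the 24 clusters was followed by an A stretch, defined as a run of 6 A or 7 A among the next 10 genomic bases. All 24 lay at least 56 bases before the annotated end. The authors removed positions followed by such stretches over 25 bases from annotated ends, so this absence was largely set by their filter.

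lncRNA:mimi (chr3R:23983503-23985065, plus strand) had 89971 reads and rank 159. Most of them lay in 3 clusters well inside the longest annotation, with 29345, 27230 and 26287 reads. The third ended 1 base past an annotated transcript end, and the others 105 and 81 bases before it. None of the 3 had a hexamer, and each was followed by 7 or 8 A among 10 bases. A cluster of 6151 reads (6.84%), 57 bases past the 3′-most annotated end, carried an AATAAA and 2 A among 10.
mimi distal cluster (chr3R:23985093-23985122, plus strand): caaAATAAAtgtaactgacataacatgttg

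lncRNA:roX1 and lncRNA:roX2 are RNAs of the dosage compensation complex, which raises transcription of the X chromosome in males. lncRNA:roX1 (chrX:3857230-3862697, minus strand) had 18292 reads in 11 clusters. Of these, 3 held 5809, 5429 and 4228 reads, and the first 2 ended within 1 base of an annotated end. lncRNA:roX2 (chrX:11579065-11580432, plus strand) had 7851 reads in 6 clusters, with 4748 in the main one, 5 bases past an annotated end. None of these 4 clusters had an AATAAA or ATTAAA in the window searched, and each was followed by 8 or 9 A among 10. Smaller clusters did carry one, such as those with 1135 reads in lncRNA:roX1 and 491 in lncRNA:roX2, the latter exactly at the 3′-most annotated base.

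lncRNA:Hsromega, the heat shock RNA omega, had the most clusters, 30 over 21710 bases (chr3R:21296127-21317836, plus strand), but 8294 reads. Joined within 50 bases they made 25 ends. A group of 6 clusters at the end of the short transcripts held 3676 reads (44.3%), and 5 of those 6 carried a hexamer. A cluster at 21297074 held 903 reads (10.9%). The 23 clusters further along had between 26 and 532 reads each and none had a hexamer. In 12 of these the last 50 bases occurred more than once in the genome, with up to 14 exact copies.

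lncRNA:cherub, known from tumour stem cells of the larval brain, had 1221 reads in 6 clusters. The 4 clusters at an annotated end held 187, 425, 327 and 60 reads. No cherub cluster had a hexamer. Of the other names sought, yar, sphinx, bxd, iab8, let7C (the host of the let-7 microRNA), acal and flam (a source of piRNAs) are annotated as lncRNA: genes and had no cluster of their own. The snoRNA host genes found under Uhg names (Uhg1, Uhg2, Uhg3, Uhg4, Uhg5, Uhg7 and Uhg8) and IBIN do not carry the lncRNA: prefix and lay outside the selection.

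**Figure D3:**
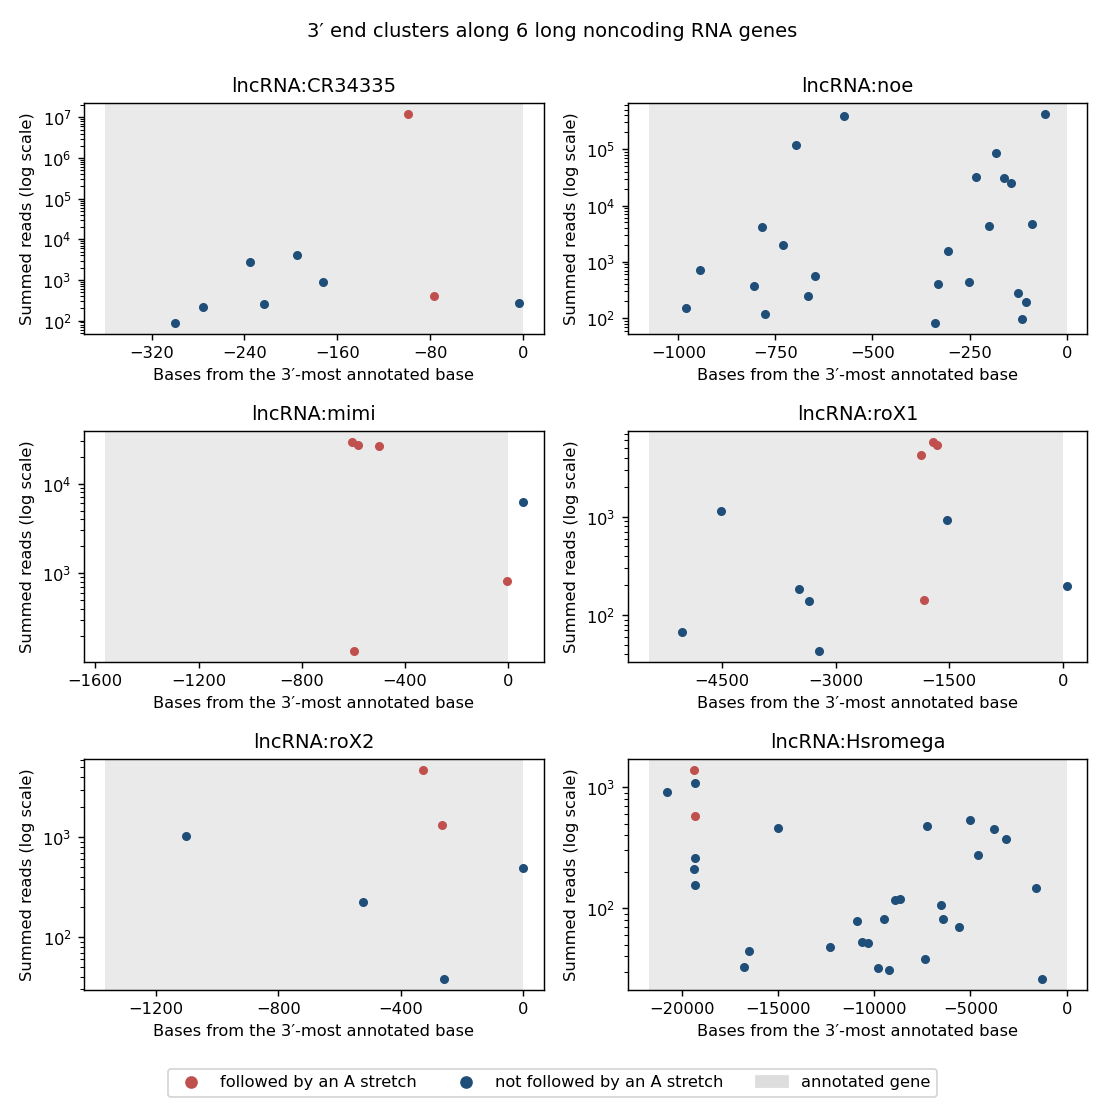
Each point is a 3′ end cluster at its distance in bases from the 3′-most annotated base of the gene (x axis, negative upstream) and with its summed reads (y axis, log scale). Grey spans the annotated gene and red marks ends followed by an A stretch. Red points are the highest in lncRNA:CR34335, lncRNA:mimi, lncRNA:roX1, lncRNA:roX2 and lncRNA:Hsromega. They are absent from lncRNA:noe, whose clusters all lie where the authors removed positions followed by such stretches.

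The remaining genes among the 10 with the most reads mostly ended at 1 place. lncRNA:CR42862 had 25655 reads, 94.5% in a cluster 8 bases past its annotated end with an AATAAA. lncRNA:CR44922 had 14654 reads, 81.6% in a cluster 29 bases past its end. lncRNA:CR43264 had 14075 reads in 2 clusters that lay 6 bases either side of its end. lncRNA:CR33942 had 11592 reads, 81.2% in a cluster 304 bases before its end that carried a hexamer. lncRNA:CR45102 had 10538 reads in 10 clusters, of which the main one, with 78.1%, ended 311 bases before the annotated end ahead of 7 A among 10.

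Among the asRNA: genes, named for lying antisense to another gene, asRNA:CR44107 led with 6501 reads. All of its 5 clusters lay downstream of the annotated gene, the main one 166 bases past its end with 5272 reads and an ATTAAA. asRNA:CR45131 had 2367 reads, asRNA:CR45800 2004, asRNA:CR44370 1963 and asRNA:CR45126 1945. asRNA:CR45800 and asRNA:CR44370 ended at 0 and 3 bases past an annotated end. asRNA:CR45131 and asRNA:CR45126 ended 1930 and 1530 bases before it, both after a hexamer.

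The share of ends that matched the annotation was lower for long noncoding RNA genes than for coding genes, and the intervals of the shares did not overlap. A transcript end of the gene was annotated no more than 50 bases away for 155 of 379 clusters (40.9%, with a Wilson 95% interval from 36.1 to 45.9), against 55.5% (54.9 to 56.1) of 28004 coding clusters. A further 161 (42.5%) lay elsewhere in an exon, 61 (16.1%) up to 500 bases downstream of the gene and 2 in an intron. For coding genes the downstream share was 4.57%. These intervals count clusters as if they were independent, although clusters of 1 gene share a transcript, and they cover counting error only.

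Taken by gene, the main cluster was at an annotated end in 103 of 176 genes (58.5%, 51.1 to 65.5) and in 86.2% (85.5 to 86.9) of coding genes. All clusters lay downstream of the annotated gene in 37 genes (21.0%), against 1.33% of coding genes. At least 2 ends over 50 bases apart were found in 39 genes (22.2%, 16.7 to 28.9) and in 45.8% of coding genes, and 114 genes had a single cluster. Coding genes also had more reads, and the share of genes with several ends was not compared at matched reads. The genes with the most clusters after lncRNA:Hsromega, lncRNA:noe and lncRNA:roX1 were lncRNA:CR45102 and lncRNA:CR44024, with 10 each. lncRNA:CR44024, on chromosome 4, had 992 reads in all, and its highest cluster held 209.

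A hexamer AATAAA or ATTAAA starting 10 to 35 bases before the 3′-most base was present in 166 of 379 clusters (43.8%, 38.9 to 48.8), against 41.2% (40.6 to 41.8) of coding clusters. When every exon base of the 176 genes was read the same way, 5.93% of 268044 positions had one. AATAAA was present at 144 clusters and ATTAAA at 32, 10 of which had both, and the first base of the hexamer nearest the end lay a median of 22 bases before the end. By place, the share was 56.1% at annotated ends, 24.2% elsewhere in exons and 62.3% downstream of the gene. The corresponding coding shares were 56.0%, 18.7% and 55.8%.

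The share with a hexamer was 65.9% (55.7 to 74.9) over the 91 asRNA: clusters and 36.8% (31.4 to 42.5) over the 288 lncRNA: clusters. Taken by gene at the main cluster alone, the shares were 70.7% (58.0 to 80.8) of the asRNA: genes and 55.1% (46.1 to 63.8) of the lncRNA: genes, whose intervals overlap. Over all 176 genes the main cluster had a hexamer in 60.2%, and in coding genes in 62.6%. Among the 10 genes with the most reads it had one in 3.

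Genomic A downstream of the ends was measured because the primer can bind it. The next 10 bases held 4.45 A on average (SD 2.01, n = 379 clusters), against 4.72 (SD 2.15) for coding clusters and 3.11 over all exon bases of the genes. An A stretch followed 48 clusters (12.7%), and 16.1% of coding clusters. The direction depended on place. At annotated ends the shares were 23.2% and 19.1%, elsewhere in exons 6.21% and 12.9%, and downstream of the gene 3.28% and 6.33%. Of the 48, 35 lay within 25 bases of an annotated end, the zone that the authors exempted from their removal of such positions, and 13 lay outside it in the annotation used here. By reads, 90.6% of the reads of the class were in clusters whose 3′-most base was followed by an A stretch. Without lncRNA:CR34335 and lncRNA:CR40469 this share was 8.82%. The latter value was set by lncRNA:noe, which had none, and without the 3 genes with the most reads it was 43.3%.

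Among the 6 genes of the selection that were on the list of names sought, this share of reads ranged widely. It was 93.2% for lncRNA:mimi, 85.3% for lncRNA:roX1, 77.4% for lncRNA:roX2, 66.5% for lncRNA:cherub and 23.8% for lncRNA:Hsromega, and 0 for lncRNA:noe. The clusters of lncRNA:noe all lay outside the zone exempted from the authors' removal of such positions. At the main cluster, 5 of these 6 genes and 5 of the 10 genes with the most reads had an A stretch, against 26 of all 176 genes (14.8%, 10.3 to 20.8) and 13.4% of coding genes. Its part in the read numbers of these genes was not tested.

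**Figure D4:**
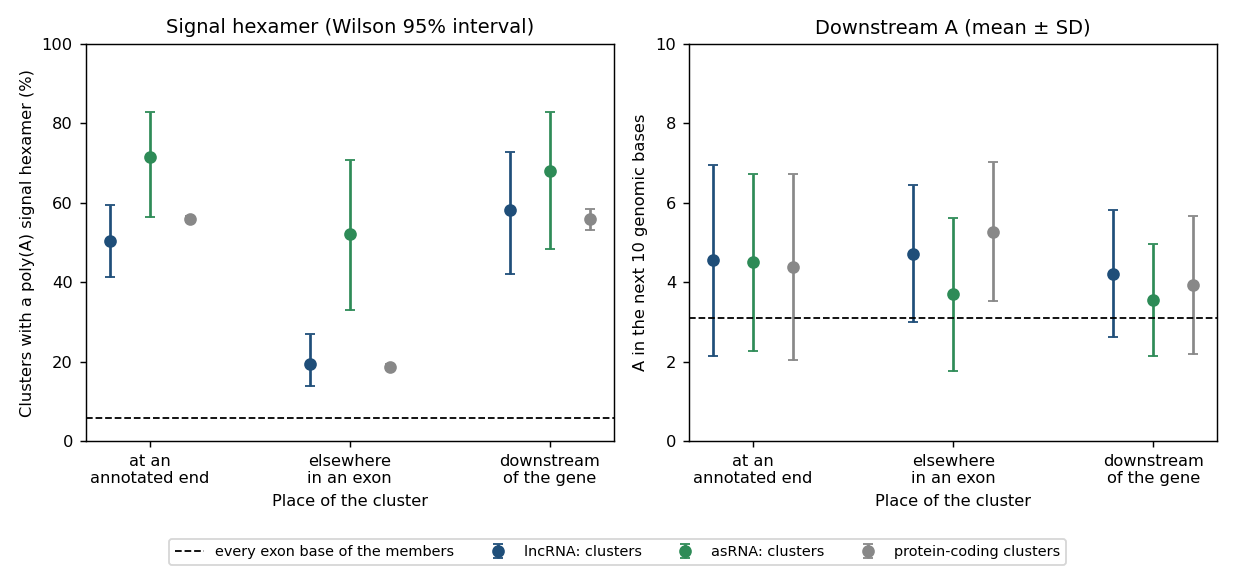
Left, percent of clusters with AATAAA or ATTAAA (y axis, with Wilson 95% intervals) by place of the cluster (x axis). Right, mean A among the next 10 genomic bases (y axis, bars are SD over clusters). The dashed lines give every exon base of the 176 genes, 5.93% and 3.11, and the asRNA: clusters elsewhere in exons stand at 52.2% against 19.6% for lncRNA: and 18.7% for coding clusters.

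The 2272 other genes of the class on the main chromosomes include 38 named only in clusters that also named another gene. Compared with these others, the 176 genes were longer in exons, with a median of 878 against 659 bases. The 176 genes were also less often of a single exon, 43.8% (36.6 to 51.1) against 63.7% (61.7 to 65.6). They were on chromosome 4 in 7 of 176 cases (3.98%), where 24 of 2450 annotated genes (0.98%) lie. The X chromosome held 32 of them (18.2%) and 12.7% of annotated genes, and 90.3% of the reads of the class. Without lncRNA:CR34335, 167998 of 1527242 reads of the class were on the X chromosome.

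A coding gene on the opposite strand overlapped 86 of the 176 genes (48.9%, 41.6 to 56.2) and 34.7% (32.8 to 36.7) of the others of the class. These were all 58 asRNA: genes, as their name implies, and 28 of the lncRNA: genes. The 5 with the most reads were lncRNA:roX1 (opposite ec, over 392 bases), lncRNA:CR43264 (CG15765), asRNA:CR44107 (CG5835), lncRNA:CR43411 (osp) and asRNA:CR45131 (M7BP). The coding partner had reads in clusters of its own in 72 pairs, with a median of 18.7 times the reads of the long noncoding RNA. In 10 of the 72 the long noncoding RNA had more, as in lncRNA:CR43264 with 14075 reads against 8824 for CG15765 and asRNA:CR44107 with 6501 against 1639 for CG5835. Each cluster of the class was on the annotated strand of its gene. Clusters took their gene names from the authors' assignment, so this match is no independent check of strand.

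On the same strand, 62 of the genes (35.2%, 28.6 to 42.5) started within 5 kb past the end of a coding gene, and 29.1% (27.2 to 31.0) of the others of the class did. The 5 with the most reads were lncRNA:mimi (271 bases past CG31140), lncRNA:roX1 (269 bases past yin), lncRNA:CR33942 (3165 bases past CG15073), lncRNA:CR45102 (185 bases past Mnt) and lncRNA:roX2 (259 bases past CG11695). Reads of an unannotated extension of the coding gene and of the long noncoding RNA cannot be told apart from the cluster table.

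Pum recognises the Pumilio response element, UGUANAUA in RNA, which was searched as TGTANATA on the strand of each gene. It occurred in the exons of 45 of the 176 genes (25.6%, 19.7 to 32.5) and of 272 of the 2272 others of the class (10.7 to 13.4%). The exons differ in length, and per kb of exon the numbers were 0.28 and 0.17. In the last 500 exonic bases of genes with at least as many, 16 of 137 genes (11.7%, 7.32 to 18.1) and 7.42% (6.23 to 8.82) of the others had an element. Coding genes with clusters had one in a 3′ UTR in 24.1% of 8553 cases, or 0.48 per kb. A match describes sequence and not binding, since IP and input could not be separated.

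The 75 elements were then set against the ends recorded for their genes. Every cluster of the gene lay past the element in 51 cases, and no cluster lay past it in 8. Only coordinates were compared, and whether the transcripts with those ends include the element was not checked. For 16 elements, in 9 genes, clusters lay on both sides. The following elements are shown because they lie near or between ends of genes named above, with the 8 matching bases in capitals.
lncRNA:CR43264 (chrX:5831907-5831932, minus strand): acagacgatTGTAAATAataacacaa
lncRNA:CR45102 (chrX:3702622-3702647, plus strand): atattttttTGTAAATAattaaaaaa
lncRNA:Hsromega (chr3R:21298237-21298262, plus strand): ccagttggtTGTAAATAttaattttg
lncRNA:cherub (chr3R:11252347-11252372, minus strand): gctatttatTGTAAATAtcataacca
lncRNA:CR44024 (chr4:429947-429972, plus strand): aagtacataTGTATATAaattaaaaa
In lncRNA:CR43264 the element lay 24 bases before the main end. In lncRNA:CR45102 it lay 336 bases before it, and 91.1% of reads ended past it. In lncRNA:Hsromega it lay 241 bases before the main end, with 89.1% of reads past it. In lncRNA:cherub it lay beyond the main end, and 18.2% of reads ended past it. In lncRNA:CR44024, 51.5% did, and the main end followed the element by 4 bases.

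Of the long noncoding RNAs that the study named among Pum targets of another run, lncRNA:CR42861, lncRNA:CR45018 and lncRNA:CR44603 were read here, and were picked after their values had been seen. They had 1262, 959 and 569 reads. lncRNA:CR42861 and lncRNA:CR45018 each held 1 element and lncRNA:CR44603 none. The element of lncRNA:CR42861 lay before all 3 of its clusters.
chrX:13745357-13745382, plus strand: aatatataaTGTATATAatgtgtatt
In lncRNA:CR45018 the main cluster, with 658 reads, had no hexamer and 9 A among the next 10 bases. The element of that gene lay past the main cluster and between its ends, with 31.4% of reads past it.
chrX:13307918-13307943, plus strand: taaatattaTGTACATAtataagcca
The single cluster of lncRNA:CR44603 lay 339 bases downstream of the annotated gene, and its last 50 bases occur 4 times in the genome.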

How the data were processed

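Per the labels and the methods, libraries were made with the QuantSeq 3′ mRNA-Seq REV kit. The authors trimmed reads with fastp, mapped them with STAR 2.6.1b to dm6 with Ensembl release 93, and removed positions followed by at least 6 A in a run or 7 A among 10, except within 25 bases of annotated 3′ ends. Peaks of at least 6 reads in a library grew outward by up to 15 bases, and reads ending no more than 500 bases past a gene stayed in. The deposited table holds raw read counts per cluster, in 12 columns with no library name. These 12 columns were used only as their sum, so depth per library, replicate spread and tests between groups are not given.

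Ensembl release 115 and the reference genome, on the same assembly, gave genes, distances and sequences (Python 3.11.15, BLAST+ 2.17.0 for the alignment of one gene pair). Starts were converted to 1-based. Genes were named by fixed rules: known names, the 10 with the most reads, the 5 with the most clusters, the 5 asRNA: genes with the most reads and the 5 with the most reads in each position class. Genes singled out beyond these rules are examples chosen after their values were seen. The search and distance functions were tested on simulated data. The genes, lists and alternatives were chosen with earlier results of these data known.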

Additional observations from a re-analysis of the deposited data

Results flagged for a closer look

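A signal lay outside the selection: 38 further lncRNA: and asRNA: genes were named only in clusters that also named another gene. Their 122 positions held 832150 reads, which cannot be divided between the genes. The largest were lncRNA:CR42491, named with RpL22 and a snoRNA (399538 reads), lncRNA:CR43900, named with Cam (212372 reads), and lncRNA:CR43199, named with CG11368 (123631 reads).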

How the results depend on the processing

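No paired analysis was possible because the count columns name no library, and for the same reason no library could be left out. The share of clusters at annotated ends was 35.1% within 25 bases and 53.0% within 100 bases. As a share of reads it was 90.8%, 10.7% without lncRNA:CR34335 and lncRNA:CR40469, and 52.6% without the 3 genes with the most reads, the last 2 settings chosen after seeing the data. The 10.7% was set by lncRNA:noe, which has no cluster at an annotated end. The share with a hexamer was 64.4% with 12 hexamers, 50.7% anywhere in the last 50 bases and 60.2% at main clusters. Downstream A came to 4.02 per 10 over the next 20 bases. The share of reads was 1.51% without the gene with the most reads, 0.29% without the leading 3 and 15.1% of clusters naming 1 gene. A response element was found in 11.4% of genes in the last 500 exonic bases and in 62.5% with TGTANA. Genes starting within 1 kb past a coding gene numbered 25. The other alternatives run stayed within the 95% interval of the value or within 1.5 times the count. Values rest on summed reads from 26 per cluster upward, so genes below the authors' peak depth are not seen.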
